A study of Mus musculus with 6 samples.

Results

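The transcripts of 35 genes of glycolysis, gluconeogenesis and lactate transport were followed in epithelial cells of the mouse small intestine. The genes were taken as a fixed list and matched by symbol to the Ensembl identifiers of the raw count table, and all 35 were found among its 55298 genes. Total RNA was sequenced in 6 libraries, all from mice with collagen-induced arthritis, in which the joints inflame after collagen is injected. Of these, 3 libraries carry the genotype label HIF2α +/- ΔIEC, in which IEC stands for intestinal epithelial cell, and 3 carry HIF2α +/- F/F and are called littermate controls. Both labels hold the +/- sign, whose meaning the labels do not give, and they name neither the Cre driver nor the age or sex of the mice. The labels do not state whether each library is a different mouse, so the p-values below measure the spread between these libraries, which may be technical.

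Glycolysis splits glucose into pyruvate in the cytosol. Pyruvate then either enters mitochondria, where the pyruvate dehydrogenase complex oxidises it, or is reduced to lactate and carried out of the cell by monocarboxylate transporters. Many of the enzymes are textbook targets of hypoxia-inducible factors, which bind DNA as a dimer of an oxygen-regulated α subunit (HIF1α or HIF2α) and a shared β subunit. The core of the bound element, ACGTG or GCGTG, recurs in the promoters of glycolytic genes. In the small intestine, enterocytes take up dietary sugar at the brush border, and both glycolytic and gluconeogenic enzymes are made along the villus.

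The genes were tested with and without a correction for transcript GC content and length. In both fits, and also without each library in turn, 4 of the 35 genes (11.4%) passed in the same direction. The share among all 15135 genes in both fits was 9.08%. Hk2 and Pfkp, which encode a hexokinase and a phosphofructokinase, rose in the libraries labelled ΔIEC. The call for Pfkp was lost when GC content and length were taken from the longest transcript. Ldha and Slc16a3, which encode the lactate dehydrogenase A subunit and the lactate exporter MCT4, fell. The promoter windows of these 4 genes, 300 bases from RefSeq on GRCm38.p6, run from 250 bases before the start site to 50 after it. They are shown because the calls of the 4 genes held in the fits above. All 4 windows hold the hypoxia-inducible factor core, as do those of 26 of the 35 genes. Capitals mark every ACGTG or GCGTG on either strand. On the minus strand these read CACGT or CACGC, and neighbouring or overlapping cores run together.

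Hk2, chr6:82774405-82774704 (minus strand): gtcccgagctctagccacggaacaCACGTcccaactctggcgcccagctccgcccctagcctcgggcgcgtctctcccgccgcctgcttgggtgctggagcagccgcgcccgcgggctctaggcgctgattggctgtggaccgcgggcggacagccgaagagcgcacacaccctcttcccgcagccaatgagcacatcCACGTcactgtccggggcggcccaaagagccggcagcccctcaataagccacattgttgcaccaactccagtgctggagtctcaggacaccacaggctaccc
Pfkp, chr13:6648722-6649021 (minus strand): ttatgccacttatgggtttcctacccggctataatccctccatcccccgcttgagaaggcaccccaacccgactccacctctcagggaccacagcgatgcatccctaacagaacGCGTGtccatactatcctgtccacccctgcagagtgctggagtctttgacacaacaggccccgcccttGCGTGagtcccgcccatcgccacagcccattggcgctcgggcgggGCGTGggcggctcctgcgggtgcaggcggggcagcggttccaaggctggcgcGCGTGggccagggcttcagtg
Ldha, chr7:46845554-46845853 (plus strand): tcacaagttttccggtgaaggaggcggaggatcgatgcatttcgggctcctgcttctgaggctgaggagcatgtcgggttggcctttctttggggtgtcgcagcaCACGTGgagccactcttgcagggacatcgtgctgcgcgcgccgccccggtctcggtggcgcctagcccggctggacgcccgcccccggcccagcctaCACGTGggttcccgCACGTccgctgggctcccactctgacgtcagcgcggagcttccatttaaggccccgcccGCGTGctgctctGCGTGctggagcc
Slc16a3, chr11:120948817-120949116 (plus strand): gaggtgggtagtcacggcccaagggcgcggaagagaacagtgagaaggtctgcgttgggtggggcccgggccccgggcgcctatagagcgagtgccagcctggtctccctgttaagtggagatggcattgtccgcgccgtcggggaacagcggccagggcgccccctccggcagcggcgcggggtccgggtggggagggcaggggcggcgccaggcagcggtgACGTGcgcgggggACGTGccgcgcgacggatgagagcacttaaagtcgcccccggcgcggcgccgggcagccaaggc

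Hk2 held 2 cores, both ACGTG on the opposite strand, at 226 and 52 bases before the start site. Pfkp held 4 cores, all GCGTG on the gene's strand. Ldha held 7, of which the overlapping pairs read CACGTG, and Slc16a3 held 2, at 27 and 14 bases before the start site. A core was present in 26 of the 35 genes' windows (74.3%) and in 43.8% of all 32851 promoter windows of the same length. The windows of Hk2 and Pfkp, which rose, and of Ldha and Slc16a3, which fell, all held it. These are matches of letters and show nothing of binding.

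Sequencing gave between 28937122 and 38454620 counted reads per library. Levels are given as CPM, reads of a gene relative to the library's size, and are scaled by TMM, whose factors were 1.12 to 1.27 in the libraries labelled ΔIEC and 0.75 to 0.92 in control libraries. Epas1, which encodes HIF2α, had 44.2, 25.9 and 31.9 CPM in the libraries labelled ΔIEC, against 12.2, 19.4 and 17.5 CPM in controls. It was higher in all 3 libraries whose label implies its loss (log2 fold change 1.06 ± 0.28 SE, adjusted p = 0.0061 by edgeR's quasi-likelihood test with Benjamini-Hochberg adjustment; corrected 1.0 ± 0.24, adjusted p = 0.014). The corrected call was lost without ΔIEC library 1. Reads were counted over the whole gene, so whether particular exons were lost was not analysed here, and the groups are named by their labels throughout. The epithelial markers Epcam and Vil1 were abundant in all libraries, at 1339 to 1754 and 2110.0 to 2593 CPM in those labelled ΔIEC and 661 to 1610.0 and 2429 to 3751 CPM in controls. Some marker levels differed between the groups. Of 7 enterocyte markers, 2 were higher and 3 lower as counted and 4 lower after correction. Their summed level was 11860 to 13390 CPM in libraries labelled ΔIEC and 28150 to 42760 CPM in controls, of which Apoa1 and Apoa4 made up 7080.0 to 8310.0 CPM in libraries labelled ΔIEC and 22350 to 38750 CPM in controls. The sums of the other 5, 4777 to 5661 CPM in libraries labelled ΔIEC and 4011 to 5804 CPM in controls, overlapped. Of 7 general epithelial markers, 1 was higher and 4 lower as counted, and 2 higher and 1 lower after correction, with summed levels of 9366 to 12340 CPM in libraries labelled ΔIEC and 19120 to 24300 CPM in controls. The stem cell markers Lgr5 and Olfm4 were higher in both fits, while Ascl2 was lower as counted (-1.46) and did not pass after correction (-0.19). Olfm4 made up most of the stem cell sum of 895 to 1142 CPM in libraries labelled ΔIEC and 119 to 279 CPM in controls. Fewer cells of a type and less RNA per cell cannot be told apart in such bulk samples. The sum of 3 cycling markers was 227 to 321 CPM in libraries labelled ΔIEC and 102 to 162 CPM in controls. Of these markers only Top2a was higher as counted, and none passed after correction (Top2a 0.08, Mki67 -0.31, Pcna -0.58). Of 3 enteroendocrine markers, 2 were higher as counted and 3 after correction. The sum of 5 erythroid markers was 6.37 to 30.6 CPM in libraries labelled ΔIEC and 52.7 to 75.3 CPM in controls, with 5 lower as counted and 2 after correction. The summed level of 8 T cell markers was 428 to 2648 CPM in libraries labelled ΔIEC and 555 to 1428 CPM in controls, and those of smooth muscle, fibroblast and endothelial markers did not exceed 9.17 CPM in any library. The part of these differences in the results below was not tested.

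Of the 35 genes, all of which passed the filter on low counts, 24 (68.6%) passed edgeR's quasi-likelihood test at an adjusted p under 0.05, with 6 higher and 18 lower in the libraries labelled ΔIEC. The share among all 15143 genes tested was 66.9%, with 37.2% higher and 29.7% lower. The median log2 fold change was -0.79 over the 35 genes and 0.15 over all genes. The 35 genes took 0.970%, 0.944% and 0.941% of counted reads in the libraries labelled ΔIEC, and 1.70%, 1.55% and 1.45% in controls. The share called was thus near that of all genes, while 17.1% of the 35 genes were higher and 51.4% lower.

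That direction followed base composition. The 6 genes called higher had a transcript GC content of 42.9% to 52.7%, and the 18 called lower had 51.9% to 58.8%. Across the 35 genes the log2 fold change and GC content had a Spearman correlation of -0.85, and across 15135 tested genes -0.74, where all points share the same 6 libraries. The log2 CPM of a gene relative to the mean of the libraries changed by -0.77, -0.87 and -0.62 per 10 percentage points of GC content in the libraries labelled ΔIEC, against 0.94, 0.91 and 0.42 in controls. Control library 3 had the shallowest of these slopes, and it lay nearest to the libraries labelled ΔIEC for many GC-poor genes below. A second fit therefore removed each library's trend over GC content and length. It also removes any true difference that follows them, so both values are given for each gene.

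**Figure D1:**
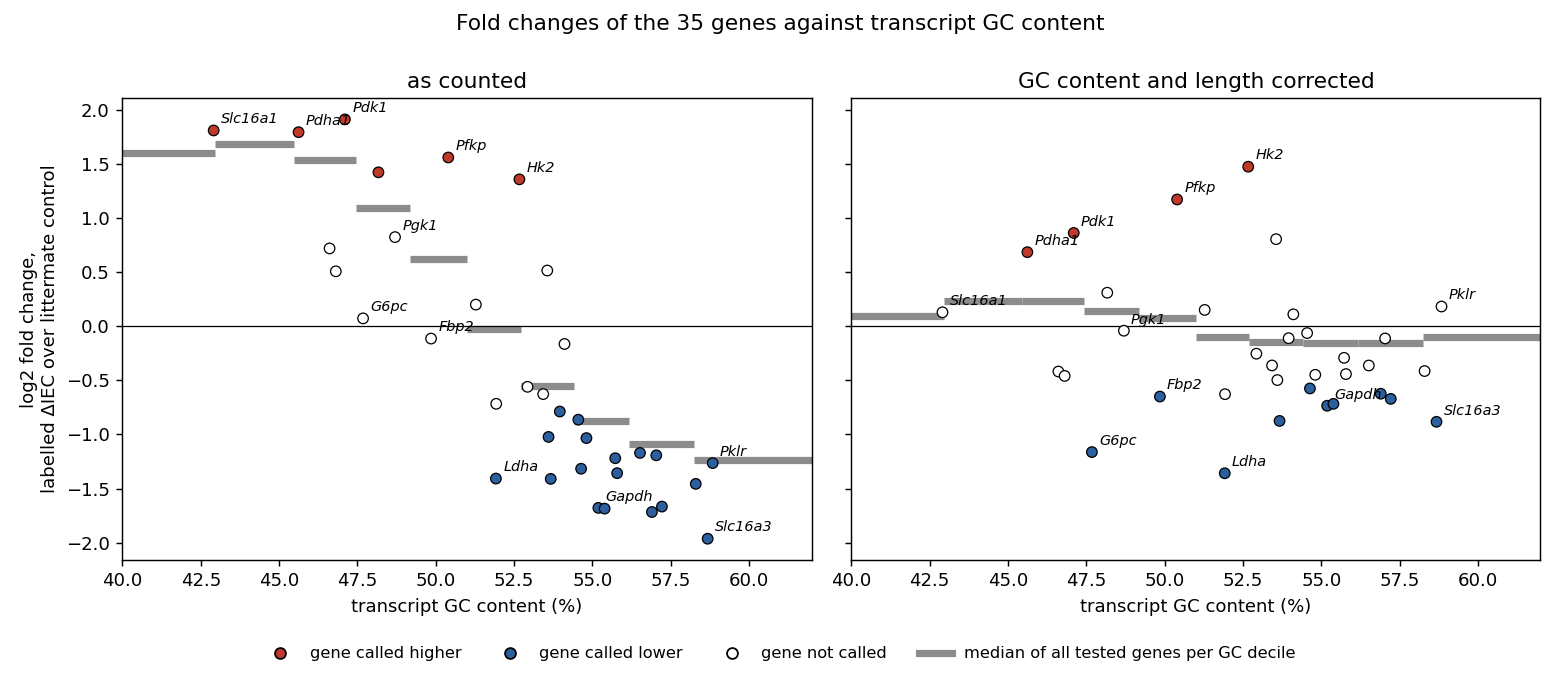
The log2 fold change of the 35 genes (vertical axis, libraries labelled ΔIEC over littermate controls) is plotted against transcript GC content in percent, as counted (left) and after the GC content and length correction (right). Red points are genes called higher, blue points genes called lower, open points genes not called, and grey bars the median of all tested genes in each decile of GC content. As counted the genes fall with GC content as the grey bars do, but Hk2 (1.36) and Ldha (-1.41) lie far from their bar (-0.03). Hk2, Pfkp, Ldha and G6pc lie farthest from the bars after correction.

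After correction 14 of the 35 genes (40%) passed, 4 higher and 10 lower. The share among 15135 genes was 29.9%, with 14.3% higher and 15.6% lower, and the medians were -0.36 over the 35 genes and -0.02 over all genes. The same call was made by both fits for 12 of the 35 genes (34.3%), 4 higher and 8 lower, against 22.3% of all genes, 12.4% higher and 9.91% lower. A further 12 genes passed only as counted, 2 only after correction, and 9 in neither fit. As counted, the groups did not overlap for 26 genes (74.3%), 8 higher and 18 lower, and for 72.6% of all genes, 39.0% higher and 33.6% lower. After correction they did not overlap for 19 genes (54.3%), 5 higher and 14 lower, and for 47.9% of all genes, 22.8% higher and 25.0% lower. The call was the same in both fits and without each library in turn for 4 genes (11.4%), against 9.08% of all genes. In every one of 23 alternative fits it was the same for 3 genes (8.57%), against 6.6% of all genes.

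**Figure D2:**
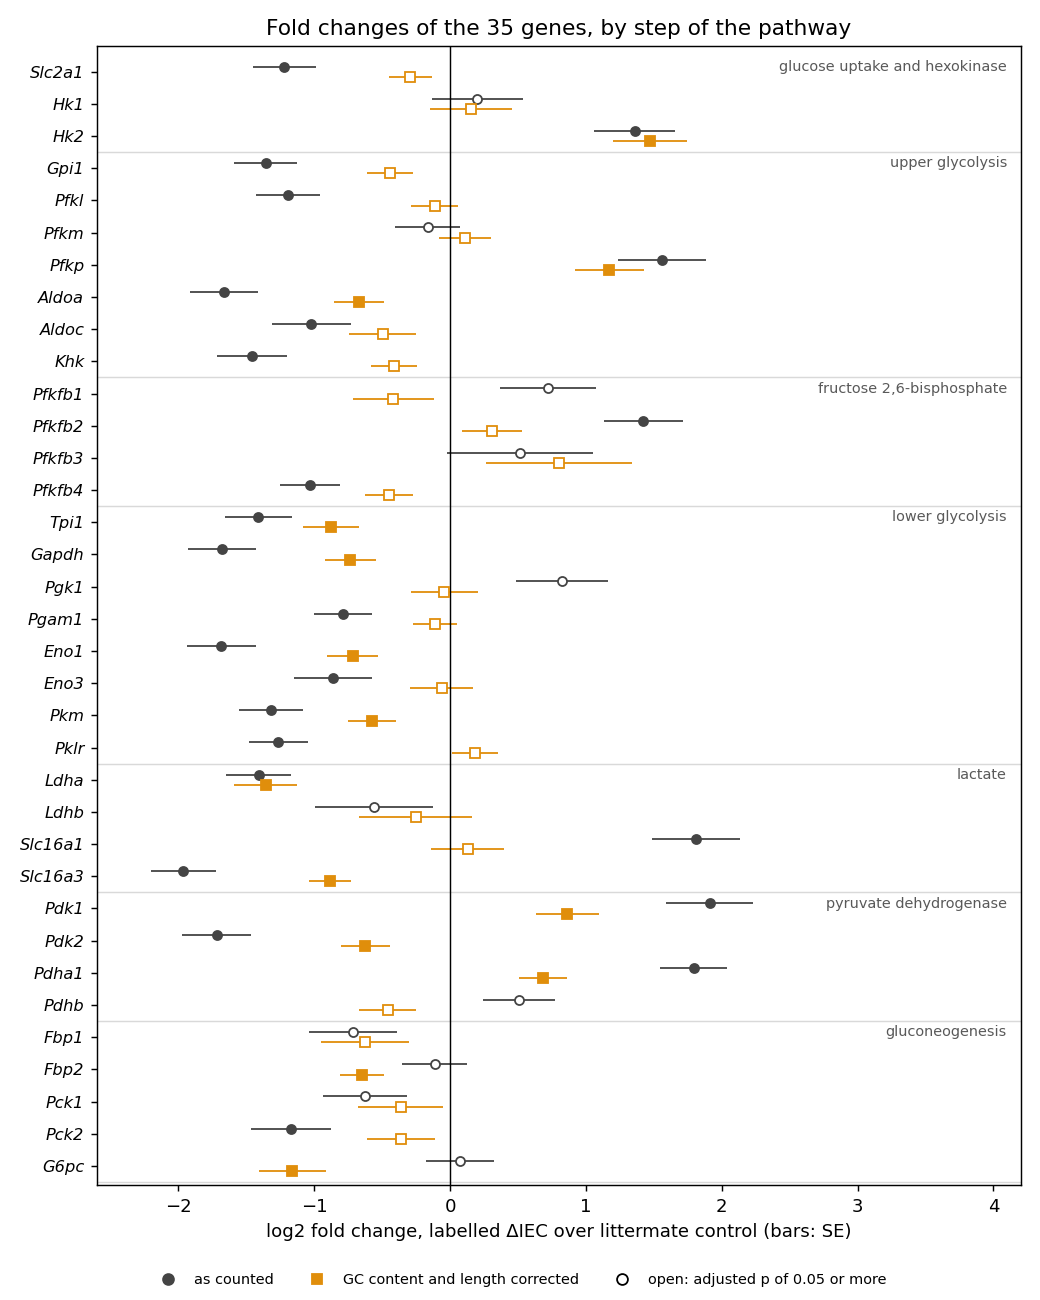
The log2 fold change of each of the 35 genes (horizontal axis, libraries labelled ΔIEC over littermate controls, bars: SE) is drawn by step of the pathway, as counted (dark circles) and after the GC content and length correction (orange squares), with open symbols where the adjusted p was 0.05 or more. Most circles lie to the left of 0, most squares lie nearer to 0, and Hk2 and Ldha have nearly the same value in both fits.

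Glucose enters many cells through GLUT1, encoded by Slc2a1, and is trapped by hexokinases, of which Hk1 and Hk2 encode the first and second. Hk2 (chromosome 6) had 38.4, 45.8 and 39.9 CPM in the libraries labelled ΔIEC, against 11.1, 13.4 and 23.8 CPM in controls. Every library labelled ΔIEC was above every control, and control 3 was the highest control. The log2 fold change was 1.36 ± 0.30 SE (2.56-fold, edgeR adjusted p = 0.0021) as counted and 1.48 ± 0.27 (2.78-fold, edgeR adjusted p = 0.0050) after correction, and without any one library it lay between 1.29 and 1.85 after correction. Hk1 had 39.0, 34.2 and 19.1 CPM in libraries labelled ΔIEC and 16.2, 32.9 and 31.2 CPM in controls, with overlapping groups and no call in either fit. The ratio of Hk2 to Hk1 reads was 0.986, 1.34 and 2.09 in libraries labelled ΔIEC, against 0.683, 0.409 and 0.764 in controls, so that Hk2 had fewer reads than Hk1 in every control. Hkdc1, a hexokinase gene outside the fixed list, had more reads than both in every library. It had 300, 303 and 403 CPM in libraries labelled ΔIEC, against 673, 495 and 589 CPM in controls. Its log2 fold change was -0.80 ± 0.23 SE (edgeR adjusted p = 0.0086) as counted. After correction it was -0.25 ± 0.19 and did not pass (edgeR adjusted p = 0.36). The call as counted was lost without ΔIEC library 2. Hk2 thus does not stand for all hexokinase transcripts.

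Slc2a1 behaved otherwise. It had 24.0, 23.1 and 25.1 CPM in the libraries labelled ΔIEC, against 60.7, 61.6 and 46.1 CPM in controls. All controls were higher, and the log2 fold change was -1.22 ± 0.23 SE (edgeR adjusted p = 0.00085). After correction it was -0.29 ± 0.16 and did not pass (edgeR adjusted p = 0.19).

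**Figure D3:**
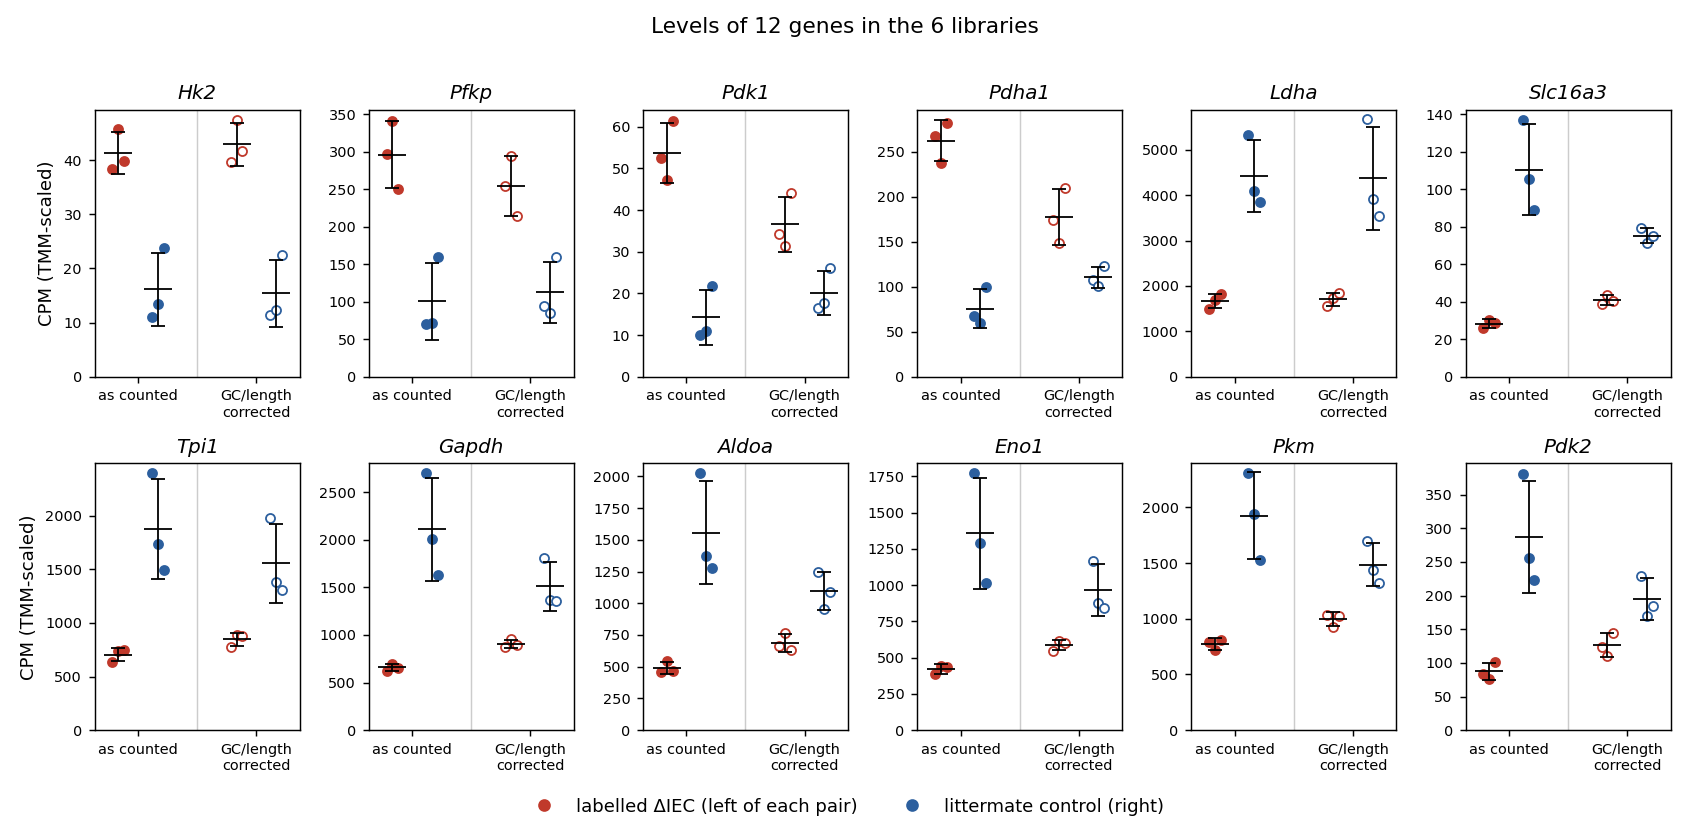
Levels in TMM-scaled CPM (vertical axes, each from 0) of the 12 genes with the same call in both fits are shown for each library, as counted (filled) and after the GC content and length correction (open), with the libraries labelled ΔIEC in red to the left of the littermate controls in blue. Bars are the mean and SD of 3 libraries. The groups are apart in every panel, and after correction those of Pfkp, Pdk1, Pdha1, Slc16a3, Tpi1, Gapdh, Aldoa, Eno1, Pkm and Pdk2 lie closer together.

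Upper glycolysis turns glucose 6-phosphate into triose phosphates. Of its 7 genes, 1 was higher and 5 lower as counted, and 1 higher and 1 lower after correction. Phosphofructokinase, the committed step, has platelet (Pfkp), liver (Pfkl) and muscle (Pfkm) isoforms. Pfkp (chromosome 13) had 298, 341 and 251 CPM in the libraries labelled ΔIEC, against 70.5, 71.4 and 159.7 CPM in controls. The groups were apart, and control 3 again stood above the other controls. Pfkp rose with a log2 fold change of 1.56 ± 0.32 SE (2.95-fold, edgeR adjusted p = 0.0016) as counted and 1.17 ± 0.25 (2.25-fold, edgeR adjusted p = 0.0097) after correction. When GC content and length were taken from the longest transcript in place of the median over transcripts, the change was 0.34 and did not pass (edgeR adjusted p = 0.31).

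Pfkl had 74.7, 58.4 and 84.2 CPM in the libraries labelled ΔIEC and 194, 164 and 139 CPM in controls, lower by 1.19 ± 0.23 SE on the log2 scale as counted (edgeR adjusted p = 0.0010) and without a call after correction (-0.11 ± 0.17, edgeR adjusted p = 0.65). Pfkm, at 14.3 to 16.8 CPM in libraries labelled ΔIEC and 15.6 to 18.5 CPM in controls, passed in neither fit. The reads of Pfkp exceeded those of Pfkl by 3.98, 5.84 and 2.98 times in the libraries labelled ΔIEC. In controls the same ratio was 0.364, 0.435 and 1.15. Pfkp reads therefore outnumbered Pfkl reads in every library labelled ΔIEC and in 1 of 3 controls, a comparison of reads that is not scaled for transcript length. The difference in the log2 ratio was 2.86 as counted and 1.35 after correction, and the groups were apart both times.

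Aldoa, the aldolase that splits fructose 1,6-bisphosphate, had 458, 547 and 467 CPM in the libraries labelled ΔIEC, against 2023, 1369 and 1280.0 CPM in controls. No library labelled ΔIEC came near a control, and the gene was lower by 1.67 ± 0.25 SE on the log2 scale as counted (edgeR adjusted p = 0.00030) and by 0.67 ± 0.18 after correction (edgeR adjusted p = 0.024). The corrected call was lost without ΔIEC library 1 or 3. Gpi1 (glucose 6-phosphate isomerase), Aldoc (aldolase C) and Khk (ketohexokinase, which feeds fructose into the pathway) were lower as counted by 1.36, 1.02 and 1.46 on the log2 scale and passed no longer after correction, at -0.44, -0.50 and -0.41.

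Fructose 2,6-bisphosphate, the strongest activator of phosphofructokinase, is made and broken down by the bifunctional enzymes of Pfkfb1 to Pfkfb4. None of the 4 genes passed after correction. As counted, Pfkfb2 was higher by 1.42 ± 0.29 SE on the log2 scale (8.80 to 9.87 CPM in libraries labelled ΔIEC, 3.12 to 4.1 CPM in controls) and Pfkfb4 was lower by 1.03 ± 0.22 (108 to 146 CPM against 251 to 308 CPM). Pfkfb3, a hypoxia-responsive isoform with strong kinase activity, had 30.7, 39.5 and 25.7 CPM in libraries labelled ΔIEC and 5.71, 30.4 and 31.0 CPM in controls. A single control was low and the other two lay within the range of the libraries labelled ΔIEC, so the log2 fold change of 0.52 had an SE of 0.54. Pfkfb1 stayed at 3.17 CPM or less in every library. Exons of Pfkfb1 overlap those of Apex2 on the opposite strand, and exons of Pfkfb2 those of Yod1, so that their counts are uncertain where strand was not used.

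Lower glycolysis leads onward to pyruvate and yields its ATP. Of its 8 genes none was higher and 7 were lower as counted, with a median log2 fold change of -1.29. After correction 4 were lower, with a median of -0.34. Tpi1 (triose phosphate isomerase) had 638, 735 and 744 CPM in the libraries labelled ΔIEC, against 2401, 1733 and 1495 CPM in controls. Gapdh (glyceraldehyde 3-phosphate dehydrogenase) had 627, 699 and 649.7 CPM in libraries labelled ΔIEC, against 2699, 2005 and 1626 CPM in controls. For both genes the lowest control had more than double the level of the highest library labelled ΔIEC. Eno1 (enolase 1) had 386, 445 and 436 CPM in the libraries labelled ΔIEC, against 1770.0, 1292 and 1014 CPM in controls. Pkm, which encodes the M1 and M2 forms of pyruvate kinase, had 789.9, 717 and 814 CPM in libraries labelled ΔIEC, against 2309, 1941 and 1532 CPM in controls. The groups were apart here too, and in each of these genes control 1 was the highest and control 3 the lowest of the controls.

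As counted, the log2 fold changes were -1.41 ± 0.25 SE for Tpi1 (edgeR adjusted p = 0.00058), -1.68 ± 0.25 for Gapdh (0.00030), -1.69 ± 0.25 for Eno1 (0.00031) and -1.32 ± 0.24 for Pkm (0.00066). After correction they were -0.88 ± 0.21 for Tpi1 (edgeR adjusted p = 0.014), -0.73 ± 0.19 for Gapdh (0.018), -0.72 ± 0.19 for Eno1 (0.020) and -0.57 ± 0.18 for Pkm (0.038). All 4 kept their sign without any one library. The corrected call was lost for Tpi1 without ΔIEC library 1 and for Gapdh and Eno1 without ΔIEC library 1 or 2. For Pkm it was lost without any of the libraries except control 3. Gapdh has 90 near-identical copies elsewhere in the annotation, which together held 1.47% as many reads as Gapdh itself, so splitting of reads among them is a limit of its absolute level.

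The remaining genes of lower glycolysis passed only as counted or in neither fit. Pgam1 (phosphoglycerate mutase 1), Eno3 (the muscle enolase) and Pklr (the liver and red cell pyruvate kinase) were lower by 0.79, 0.86 and 1.26 on the log2 scale as counted, and had -0.11, -0.06 and 0.18 after correction, none of which passed. The call for Eno3 was lost without ΔIEC library 1 or control 1. Pgk1 (phosphoglycerate kinase 1) was the exception in direction, with 147, 139 and 122 CPM in the libraries labelled ΔIEC, against 52.6, 50 and 128 CPM in controls. The groups overlapped because control 3 exceeded 1 library labelled ΔIEC, and the gene did not pass (0.82 ± 0.34 SE, edgeR adjusted p = 0.052; corrected -0.04 ± 0.25). Its GC content of 48.7% was the lowest of the 8 genes.

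Lactate dehydrogenase A, encoded by Ldha, favours the reduction of pyruvate to lactate. Ldha (chromosome 7) was the most abundant of the 35 transcripts per kilobase of median transcript length, at 2253 CPM per kilobase in the libraries labelled ΔIEC and 5978 in controls. It had 1501, 1689 and 1813 CPM in the libraries labelled ΔIEC, against 5322, 4098 and 3852 CPM in controls. The lowest control was above the highest library labelled ΔIEC by a wide gap. Ldha took 0.190%, 0.198% and 0.202% of all counted reads in the libraries labelled ΔIEC, against 0.400%, 0.357% and 0.355% in controls. The log2 fold change was -1.41 ± 0.24 SE (2.65-fold lower, edgeR adjusted p = 0.00051). The correction hardly moved it, at -1.36 ± 0.23 (2.56-fold lower, edgeR adjusted p = 0.0035), and without any one library it stayed between -1.57 and -1.13 in both fits. With a GC content of 51.9%, Ldha lay in the GC decile of genes whose median log2 fold change as counted was -0.03. Ldhb, whose subunit favours the reverse reaction, had 0.267 to 0.631 CPM in libraries labelled ΔIEC and 0.611 to 0.658 CPM in controls and passed in neither fit.

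Lactate leaves glycolytic cells mainly through MCT4, encoded by Slc16a3, and crosses membranes in either direction through MCT1, encoded by Slc16a1. Slc16a3 (chromosome 11) had 25.8, 30.3 and 28.8 CPM in the libraries labelled ΔIEC, against 137, 105 and 89.1 CPM in controls. The groups were far apart, and the log2 fold change of -1.96 ± 0.24 SE (3.90-fold lower, edgeR adjusted p = 0.00019) was the most negative of the 35 as counted. After correction the levels were 38.6, 43.6 and 40.3 CPM in libraries labelled ΔIEC, against 79.4, 71.5 and 75.0 CPM in controls, still apart, and the change was -0.88 ± 0.15 (1.84-fold lower, edgeR adjusted p = 0.0039). Without any one library it was between -0.94 and -0.85 after correction.

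Slc16a1 had 120.5, 125 and 154 CPM in libraries labelled ΔIEC, against 27.4, 26.3 and 60.2 CPM in controls, a log2 fold change of 1.81 ± 0.32 SE as counted (edgeR adjusted p = 0.00072). It has the lowest GC content of the 35 genes, 42.9%, and after correction the difference was 0.13 ± 0.27, which did not pass (edgeR adjusted p = 0.74). The ratio of Slc16a3 to Slc16a1 reads was 0.215, 0.243 and 0.187 in the libraries labelled ΔIEC, against 4.99, 4.0 and 1.48 in controls. Slc16a3 reads outnumbered Slc16a1 reads in every control and in no library labelled ΔIEC, a comparison that is not scaled for transcript length. Per kilobase of median transcript length, Slc16a3 and Slc16a1 had mean levels of 29.0 and 30.1 CPM in libraries labelled ΔIEC. In controls these means were 113 and 8.58 CPM. Per kilobase of the longest transcript they were 6.53 and 30.1 CPM in libraries labelled ΔIEC, and 25.5 and 8.58 CPM in controls. Whether the 2 transcripts had like levels in libraries labelled ΔIEC thus depends on the length used for Slc16a3. The difference of the log2 ratios was -3.86 as counted and -1.03 after correction, with the groups apart in both.

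The pyruvate dehydrogenase complex is switched off by its kinases, among them those of Pdk1 and Pdk2, and Pdha1 and Pdhb encode the α and β subunits of its first enzyme. Pdk1 had 52.4, 47.2 and 61.3 CPM in the libraries labelled ΔIEC, against 9.90, 10.9 and 21.9 CPM in controls. Pdk2 had 83.5, 76.5 and 102 CPM in libraries labelled ΔIEC, against 381, 256 and 223 CPM in controls. Every Pdk1 value in the libraries labelled ΔIEC was above the controls, and every Pdk2 value below them. The log2 fold change of Pdk1 was 1.91 ± 0.32 SE as counted (edgeR adjusted p = 0.00049) and 0.86 ± 0.23 after correction (edgeR adjusted p = 0.022). That of Pdk2 was -1.72 ± 0.25 as counted (edgeR adjusted p = 0.00030) and -0.62 ± 0.18 after correction (edgeR adjusted p = 0.030). The 2 kinases thus moved in opposite directions, and the Pdk2 to Pdk1 read ratio was 1.59, 1.62 and 1.66 in libraries labelled ΔIEC, against 38.4, 23.4 and 10.2 in controls.

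Pdha1 had 268, 238 and 282 CPM in the libraries labelled ΔIEC, against 67.0, 60.1 and 100.2 CPM in controls, higher by 1.79 ± 0.25 SE on the log2 scale (edgeR adjusted p = 0.00022) and by 0.68 ± 0.18 after correction (edgeR adjusted p = 0.020). Its partner Pdhb did not pass, with 109, 115 and 124 CPM in libraries labelled ΔIEC and 51.6, 84.6 and 108 CPM in controls (0.51 ± 0.27 as counted, -0.46 ± 0.21 after correction). The Pdhb to Pdha1 read ratio was 0.408, 0.484 and 0.438 in libraries labelled ΔIEC, against 0.770, 1.41 and 1.08 in controls, and it differed by -1.26 on the log2 scale as counted and -1.11 after correction. The 2 transcripts differ in GC content by only 1.19 percentage points. The corrected calls of Pdk1 and Pdk2 were each lost without any of 4 libraries and that of Pdha1 without any of 3. For Pdk1 these were ΔIEC 1 and 3 and controls 1 and 2, for Pdk2 ΔIEC 1 and 2 and controls 1 and 2, and for Pdha1 ΔIEC 1 and 3 and control 2.

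**Figure D4:**
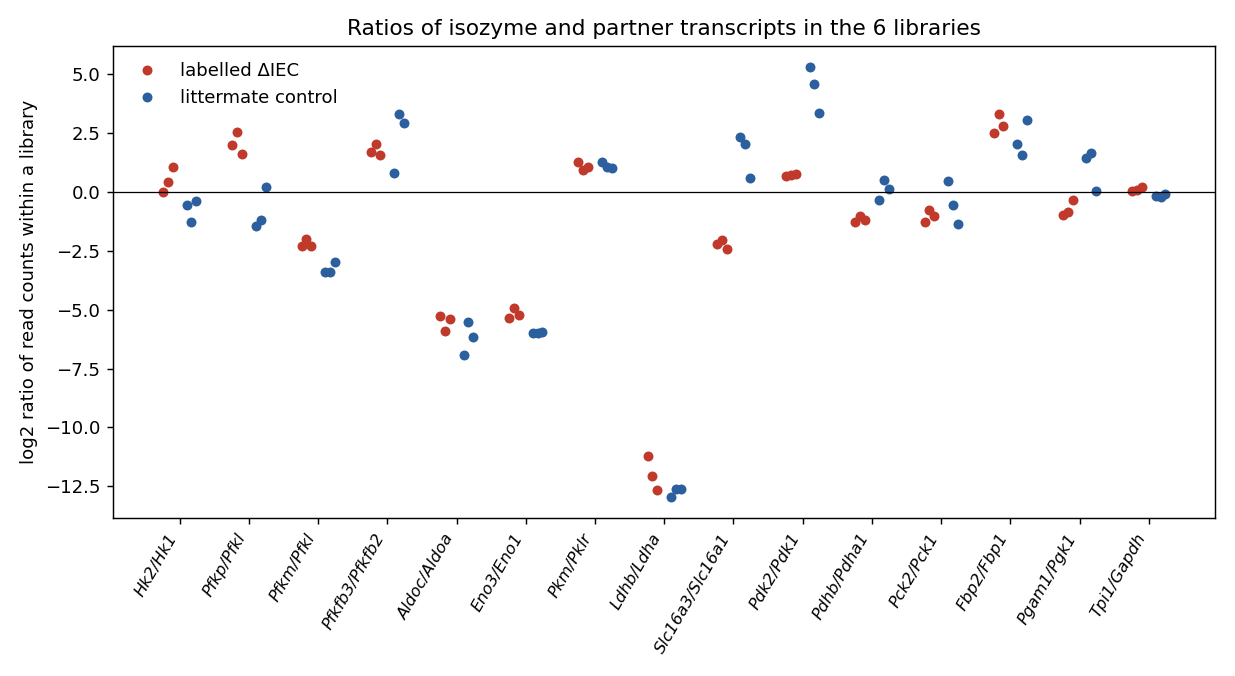
The log2 ratio of read counts of 2 genes within a library (vertical axis) is shown for 15 isozyme or partner pairs, with the 3 libraries labelled ΔIEC in red to the left of the 3 littermate controls in blue. The groups do not overlap for 9 of the 15 pairs, with the widest gaps for Slc16a3/Slc16a1, Pdk2/Pdk1 and Pfkp/Pfkl.

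Ratios within a library need no scaling between libraries, and 15 were compared. The groups did not overlap for 9 of the 15 as counted and for 8 after correction. The share over other pairs of genes was not computed, so whether these counts are unusual is not known. Among all single genes the groups did not overlap for 72.6% as counted and 47.9% after correction. With 3 libraries against 3, the smallest p that a two-sided exact permutation test allows is 0.10, and all 9 reached it (Benjamini-Hochberg adjusted p = 0.17), so none passes a threshold of 0.05. Beside those given above, the groups were apart as counted for Pfkm/Pfkl (a difference of 1.03 in log2 ratio), Eno3/Eno1 (0.80), Pgam1/Pgk1 (-1.76) and Tpi1/Gapdh (0.26). After correction only Eno3/Eno1 of these 4 stayed apart (0.64). Pkm to Pklr reads stood at 2.42, 1.87 and 2.05 in libraries labelled ΔIEC and 2.41, 2.07 and 2.0 in controls, a difference of -0.04 that became -0.75 after correction, with the groups then apart.

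Gluconeogenesis reverses glycolysis through phosphoenolpyruvate carboxykinase (cytosolic Pck1, mitochondrial Pck2), fructose 1,6-bisphosphatase (Fbp1, Fbp2) and glucose 6-phosphatase (G6pc), which releases free glucose. Of these 5 genes 1 was lower as counted and 2 others after correction, and none had the same call in both fits. G6pc had 37.5, 28.2 and 42.3 CPM in libraries labelled ΔIEC and 27.8, 41.1 and 33.8 CPM in controls. The groups overlapped as counted (0.07 ± 0.25 SE, edgeR adjusted p = 0.81). After correction the levels were 23.2, 18.0 and 29.6 CPM in the libraries labelled ΔIEC, against 50, 66.7 and 42.0 CPM in controls, now apart, and the log2 fold change was -1.16 ± 0.25 (edgeR adjusted p = 0.0088). This call was made without any one library as well. It was lost when length alone was corrected (-0.46).

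Fbp2 had 276, 239 and 294 CPM in libraries labelled ΔIEC and 226, 270.0 and 379 CPM in controls, with no call as counted (-0.11 ± 0.24 SE) and a lower level after correction (-0.65 ± 0.16, edgeR adjusted p = 0.017). That call was lost without ΔIEC library 1, ΔIEC library 2 or control 2, and with the longest transcript's GC content and length the change was 0.13. Fbp1 had 49.7, 24.6 and 42.8 CPM in libraries labelled ΔIEC and 55.6, 91.2 and 45.7 CPM in controls. The difference did not pass as counted (-0.72 ± 0.32, edgeR adjusted p = 0.068) or after correction (-0.63 ± 0.32, edgeR adjusted p = 0.17). Pck1, the rate-controlling enzyme of gluconeogenesis, had 87.4, 55.7 and 109.7 CPM in libraries labelled ΔIEC and 93.4, 116 and 181 CPM in controls, with overlapping groups and no call (-0.63 ± 0.31, edgeR adjusted p = 0.088). Pck2 was lower by 1.17 ± 0.29 as counted and had -0.36 ± 0.25 after correction, which did not pass.

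Among 46 other genes of these pathways, 38 passed the filter on low counts. Of these, 11 (28.9%) were higher and 13 (34.2%) lower as counted, against 37.2% and 29.7% of all genes. After correction 2 (5.26%) were higher and 9 (23.7%) lower, against 14.3% and 15.6%. The shares called were thus 63.2% against 66.9% as counted and 28.9% against 29.9% after correction. The same call in both fits was made for 7 genes (18.4%), against 22.3% of all genes. Beside Epas1 these were 6 genes, all lower. Mpc2, which encodes a subunit of the mitochondrial pyruvate carrier, had 74.3, 79.0 and 90.6 CPM in the libraries labelled ΔIEC, against 151, 159.8 and 148 CPM in controls. The 2 groups were tight and apart, with a log2 fold change of -0.91 ± 0.20 SE (edgeR adjusted p = 0.0022) and a corrected value of -2.35 ± 0.23 (edgeR adjusted p = 0.0012). Its GC content of 43.2% lies in a GC decile whose median log2 fold change was 1.69 as counted. Its partner Mpc1 passed only after correction (-0.57 ± 0.25 as counted, -1.59 ± 0.21 corrected), and so did Slc5a1, the brush border glucose transporter SGLT1 (-0.07 ± 0.31 as counted, -1.37 ± 0.25 corrected). The call for Mpc2 was made in both fits without each library in turn.

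Bsg encodes basigin, the chaperone that carries MCT1 and MCT4 to the membrane. It had 621, 674 and 784 CPM in the libraries labelled ΔIEC, against 2635, 1799 and 1402 CPM in controls, and was lower by 1.49 ± 0.27 SE on the log2 scale and by 0.69 ± 0.20 after correction (edgeR adjusted p = 0.033). Pcx, the pyruvate carboxylase that opens gluconeogenesis, had 38.4, 39.5 and 43.1 CPM in libraries labelled ΔIEC, against 186, 128 and 109.7 CPM in controls, and was lower by 1.81 ± 0.25 and by 0.64 ± 0.16 after correction (edgeR adjusted p = 0.019). Both genes were thus lower in every library labelled ΔIEC than in any control. Slc37a4 (the glucose 6-phosphate transporter), Tkfc (triokinase) and Ldhd (D-lactate dehydrogenase) were lower by 1.33, 1.40 and 1.06 as counted and by 0.68, 0.80 and 0.86 after correction. The corrected call was lost for Tkfc without ΔIEC library 2, for Pcx without ΔIEC library 1 or 2, and for Bsg, Slc37a4 and Ldhd without any of ΔIEC 1, ΔIEC 2, control 1 and control 2.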

How the data were processed

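RNA was extracted with Trizol from small-intestine epithelial cells and sequenced with Illumina protocols, per the labels' protocols. The submitters' processing notes list STAR 2.6.1c, Subread 1.6.1, SAMtools 1.8, cutadapt 1.18 and FastQC 0.11.8, with the GRCm38 (mm10) build; strand and multimapping settings are not given in the sources used here. The files the authors deposited hold raw counts per gene, a normalised signal, which equals the counts divided by DESeq2 size factors, and regularised log2 values. The deposited counts were used for every test. The deposited log2 values were used only to compare signs, which were the same for 34 of 35 genes.

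Groups followed the genotype labels, and replicate numbers only name libraries. Low counts were removed by filterByExpr (at least 10 reads, total at least 15), and the rest were tested with edgeR 4.0.16 (R 4.3.3), with TMM scaling, a robust quasi-likelihood test and Benjamini-Hochberg adjustment over all 15143 genes tested (threshold 0.05). The SE is the log2 fold change divided by the square root of F. The correction took log2 CPM (prior count 2) minus its mean over libraries, smoothed it in each library with natural splines on GC content (6 df) and log2 length (5 df), and used the smooth as an offset. GC content and length were medians over the transcripts of GENCODE M21, in which 55117 of the 55298 identifiers matched. These can differ from the transcript expressed. Ratios used counts plus 0.5. The steps were also run on simulated counts. Where a trend was added to these, it was the one fitted here, and changed genes were drawn without regard to GC content. The run therefore cannot show how the correction acts where true changes follow GC content. Near copies were found with BLAST+ 2.17.0 (at least 95% identity over 200 bases). The symbol Aldoa pairs with 2 identifiers; ENSMUSG00000030695 was used, and the other had 30 to 76 reads per library.

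The 35 genes, the other pathway genes, the markers and the rule for naming genes (genes with the same call in both fits, genes called in 1 fit as needed, and fixed genes of uptake, lactate and gluconeogenesis) were chosen with earlier results of these data known. The rule also lists 1 of the other pathway genes whose values are not reported here. Alternatives were other scalings (DESeq2 size factors, upper quartile, total count), the DESeq2 1.42.0 Wald test, limma-voom (limma 3.58.1) with sample weights, no filter, a stricter filter (1 CPM in 3 libraries), other corrections, and each library left out.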

Additional observations from a re-analysis of the deposited data

How the results depend on the processing

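No paired analysis was possible because the replicate numbers were given in accession order and pair no libraries. Hk2, Ldha and Slc16a3 had the same call in all 23 alternative fits, as did 6.6% of all genes tested and, among the other pathway genes, Mpc2; Pfkp lost its call with the longest transcript's GC content and length. With the GC content and length correction, 10 of the 35 genes were lower with a median log2 fold change of -0.36, 2 other pathway genes were higher, and 6 of the 35 genes had the opposite sign to that as counted. These were Pklr (0.18), G6pc (-1.16), Pgk1 (-0.04), Pfkfb1 (-0.42), Pdhb (-0.46) and Pfkm (0.11), of which G6pc alone passed after correction. The uncorrected median over the 35 genes was -0.94 with DESeq2 size factors, the DESeq2 Wald test and limma-voom, and -0.31 with total count scaling, under which the median of all genes was 0.61 in place of 0.15. No gene called as counted turned direction under another scaling. Of those not called, Pfkm (0.32) and Fbp2 (0.34) were above 0 under total counts and G6pc (-0.06) below 0 with DESeq2 size factors and the Wald test, and G6pc was also below 0 with limma-voom (-0.15). Aldoc, Pgam1 and Eno3 lost their call under total counts. In the corrected fit, length alone gave 20 lower genes, a median of -0.78, and 9 higher and 16 lower other pathway genes, with Pfkm at -0.78 and Pklr at -0.9995. The longest transcript's values gave 2 higher genes, with Pklr at -0.70 and Fbp2 at 0.13. The cause of these differences was not tested.

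Leaving out each library in turn gave 6 to 8 higher and 17 to 19 lower genes and a median of -0.94 to -0.73 as counted, and 2 to 4 higher, 3 to 10 lower and a median of -0.47 to -0.26 after correction. Fewest corrected genes were lower without ΔIEC library 1 (3) and ΔIEC library 2 (5), and 2 were higher without ΔIEC library 1, ΔIEC library 3 or control 2. Calls over all genes fell too. Without ΔIEC library 1 and ΔIEC library 2, 1121 of 15431 and 1440 of 15533 genes were lower, against 2362 of 15135 with all libraries. Without ΔIEC library 1, ΔIEC library 3 and control 2, 1164, 2025 and 1069 genes were higher, against 2162 with all libraries. Of the other pathway genes 10 to 13 were higher and 12 to 14 lower as counted, and 0 to 3 were higher and 3 to 9 lower after correction. Between 9 and 11 ratios had groups apart. The group and the GC trend of its libraries cannot be told apart, and with 3 libraries a group the calls rest on spread between libraries that may be technical. Ldhb stayed under 1 CPM in every library, where counting error limits the precision.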
